A study of Mus musculus with 4 samples.

Results

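The genes described here belong to the TGF-beta, Wnt and Notch signalling pathways. They were taken as a list of 58 genes, 25 of TGF-beta, 18 of Wnt and 15 of Notch signalling, and their members in the data are the accessible chromatin regions (peaks) that the deposited table names for 1 of them. Of the 5332 peaks in the table, 29 were named for 24 of the 58 genes, and 34 genes had no row. The table holds only peaks that passed the FDR threshold of 0.05 in the study's own comparison of genotypes. A gene without a row therefore had no differential peak in this table, which does not say that its chromatin was closed. The study's text counts more differential peaks than the table used here holds, so such a gene may have one that was not analysed here.

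ATAC-Seq reads where the transposase Tn5 can enter chromatin. It was applied to long-term hematopoietic stem cells (LT-HSCs) sorted from mouse bone marrow as Lineage-negative, cKit+, Sca-1+, Flk2-, CD48- and CD150+ cells. The 2 groups were control mice, labelled WT and called Sin3B+/+ here, and Sin3B-/- mice, in which floxed Sin3B was deleted by Vav1-iCre. This Cre is active throughout the blood system from fetal life on and not only in stem cells. The paper calls the controls both Sin3B+/+ and Sin3BF/F (floxed). Whether they carried Cre is not given in the sources used here, so an effect of Cre itself cannot be told apart from the loss of Sin3B. All mice were C57BL/6, untreated, and of an age that the sources used here do not give for these libraries. Each genotype had 2 libraries, and each library pooled LT-HSCs from 2 mice, so that a level is an average over pooled animals and cells.

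TGF-beta family ligands bind pairs of serine/threonine kinase receptors, which phosphorylate SMAD proteins that enter the nucleus with SMAD4; in bone marrow the pathway is known for holding stem cells in quiescence. In Wnt signalling, Frizzled and LRP5/6 receptors act through Dishevelled proteins to block the destruction complex of AXIN1, APC and GSK3B, and the beta-catenin that accumulates joins TCF/LEF factors at DNA. In Notch signalling, a Jagged or Delta ligand on one cell leads to cleavage of Notch on its neighbour, and the released domain turns RBPJ from a repressor into an activator with the help of Mastermind-like proteins. SIN3B itself is a scaffold of histone deacetylase complexes.

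The sequences of 5 peaks are shown because they carry the largest changes or the motif matches described further on. All are GRCm38, plus strand. Capitals mark matches on either strand to TTCCCAC or TTCTCAC (RBPJ; GTGGGAA or GTGAGAA on the other strand), CTTTGAT or CTTTGAA (TCF/LEF) and CAGACAG (SMAD; CTGTCTG on the other strand). The Jag2 and Dvl2 peaks had the largest changes of their pathways. The Jag2 sequence is the central 300 bases of the intron peak, chr12:112917617-112917916, and holds no match. The Dvl2 sequence is the whole peak, chr11:70005567-70005853, centred on a coding exon, with 1 SMAD match. The Ski sequence is the central 300 bases of the peak with the largest TGF-beta change, chr4:155200930-155201229, an intron with 3 SMAD matches. The Rbpj sequence is a whole peak in an intron of the gene for the Notch transcription factor, chr5:53594334-53594619, with 1 RBPJ match. The Dvl1 sequence, chr4:155856179-155856478, is shown because it was the only member peak with matches to the motifs of both Notch and Wnt signalling.
Jag2: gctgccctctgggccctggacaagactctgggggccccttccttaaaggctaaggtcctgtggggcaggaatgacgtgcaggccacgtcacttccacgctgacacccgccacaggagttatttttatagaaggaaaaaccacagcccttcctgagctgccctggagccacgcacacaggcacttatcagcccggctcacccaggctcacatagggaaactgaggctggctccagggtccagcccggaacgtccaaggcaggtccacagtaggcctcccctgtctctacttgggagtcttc
Dvl2: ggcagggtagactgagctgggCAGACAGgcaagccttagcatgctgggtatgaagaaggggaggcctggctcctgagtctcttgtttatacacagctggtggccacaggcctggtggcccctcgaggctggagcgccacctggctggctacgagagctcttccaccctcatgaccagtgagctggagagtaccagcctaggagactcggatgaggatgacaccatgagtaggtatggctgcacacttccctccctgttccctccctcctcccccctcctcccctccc
Ski: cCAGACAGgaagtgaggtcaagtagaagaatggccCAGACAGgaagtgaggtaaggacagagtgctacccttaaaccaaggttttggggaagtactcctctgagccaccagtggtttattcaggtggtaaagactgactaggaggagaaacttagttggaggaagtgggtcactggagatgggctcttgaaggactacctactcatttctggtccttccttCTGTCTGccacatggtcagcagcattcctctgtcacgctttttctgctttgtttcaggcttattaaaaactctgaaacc
Rbpj: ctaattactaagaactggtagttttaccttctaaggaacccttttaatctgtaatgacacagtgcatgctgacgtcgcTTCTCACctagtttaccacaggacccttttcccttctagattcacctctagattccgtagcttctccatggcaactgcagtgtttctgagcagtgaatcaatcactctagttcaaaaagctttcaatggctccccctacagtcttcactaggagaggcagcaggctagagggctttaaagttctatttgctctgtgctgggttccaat
Dvl1: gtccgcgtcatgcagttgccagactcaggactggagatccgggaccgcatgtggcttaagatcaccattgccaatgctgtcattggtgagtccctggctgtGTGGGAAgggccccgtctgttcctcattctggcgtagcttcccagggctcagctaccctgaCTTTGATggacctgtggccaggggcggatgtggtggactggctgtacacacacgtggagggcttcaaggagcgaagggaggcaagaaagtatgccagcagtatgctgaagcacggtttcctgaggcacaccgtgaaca

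The number of genes with a peak differed among the pathways. Wnt had a peak for 10 of 18 genes (55.6%), TGF-beta for 9 of 25 (36.0%) and Notch for 5 of 15 (33.3%). Without the peaks of the lowest level quartile the counts were 6 for Wnt, 7 for TGF-beta and 4 for Notch, and with peaks assigned to the nearest transcription start site (TSS) they were 7, 8 and 3. Across the protein-coding genes of GENCODE M21, 3447 of 21938 (15.7%) were named for a peak. A second list of other genes of the same pathways gave 12 of 81 for Wnt (14.8%), 5 of 47 for TGF-beta (10.6%) and 11 of 43 for Notch (25.6%), or 28 of 171 together (16.4%). The listed genes were long, with a median length of 61.4 kb against 23.7 kb for the other pathway genes and 17.4 kb for all protein-coding genes. The share of protein-coding genes with a peak went up with length, from 7.55% in the shortest quartile to 23.4% in the longest. The part of length in the shares of the 3 pathways was not tested, and the listed genes were chosen with results of these data known.

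**Figure D1:**
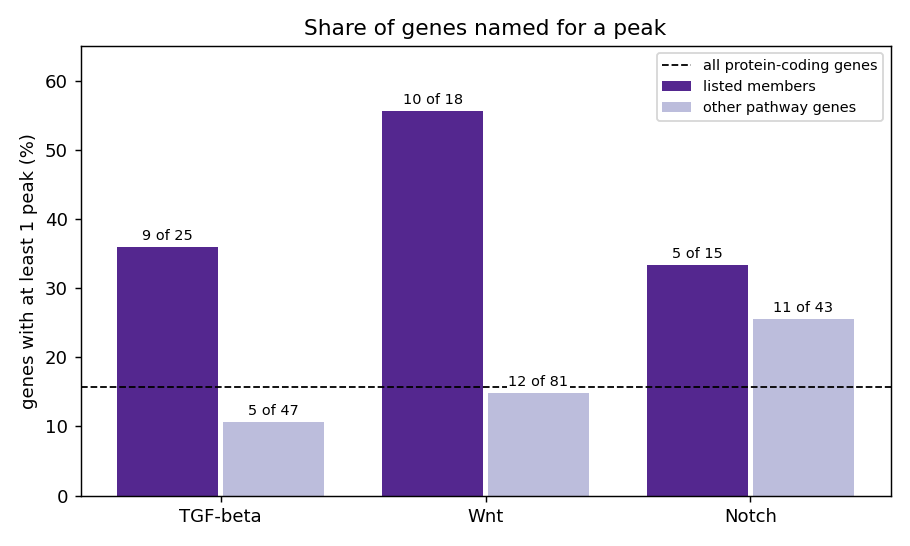
The bars show the percentage of genes with at least 1 peak, by pathway, for the listed genes and for other genes of the same pathway, and the dashed line marks all protein-coding genes (15.7%). The listed Wnt genes have the tallest bar (10 of 18), and all 3 bars of listed genes stand above the line, whereas of the bars for other genes the Notch bar alone does (11 of 43).

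By role, peaks were named for 2 of 7 ligands and ligand carriers (Tgfb1 and Jag2), 6 of 16 receptors, 7 of 15 proteins that carry the signal to DNA, 9 of 17 inhibitors and 0 of 3 targets and modulators (Hes1, Hey1 and Dtx1). The TGF-beta genes without a row were the ligands Tgfb2 and Tgfb3 and the latent ligand carrier Ltbp1, the receptors Tgfbr2, Tgfbr3, Bmpr1a, Acvr1, Acvr2a and Eng, the signal carriers Smad3, Smad4 and Smad5, and the inhibitors Skil, Tgif2, Smurf1 and Smurf2. Those of Wnt were the receptors Fzd1 and Fzd7, the Dishevelled gene Dvl3, the destruction complex genes Apc and Axin2, the factors Tcf7l1 and Tcf7l2, and the corepressor Tle3. The Notch genes without a row were Notch2, Notch3, Dll1, Jag1, Maml1, Maml3, Nrarp, Hes1, Hey1 and Dtx1. None of the 34 genes without a row contained the centre of a peak named for another gene, and 1 of them, Eng, was the gene with the nearest TSS to a peak named for Ak1.

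Levels per library are the study's scaled read levels. They were whole multiples, within 0.011, of 1 step per library in 100% of peaks, with steps of 0.228 and 0.343 in Sin3B+/+ replicates 1 and 2 and 0.625 and 1.0 in Sin3B-/- replicates 1 and 2. The median member peak held 811 and 451 steps in the Sin3B+/+ libraries and 446 and 307 in the Sin3B-/- libraries. A step may be what 1 read was worth, but a separate check of the low values did not accept them as whole reads, so steps are not given as reads. Levels in steps and scaled levels thus differed in their order between genotypes at the median member peak, and the scaling bears on the direction of the differences. The median log2 fold change of the whole table was 0.76 towards Sin3B-/-, and centring each library on its median removed a shift of 0.75. That median is over the peaks of this table alone, all selected for a difference and 95.7% of them higher in Sin3B-/-. Centring thus subtracts the typical change of the table. The share then above 0, 50.8%, is near balance because of the centring itself. A centred value only places a peak against the rest of the table. Changes are given on the log2(level + 1) scale of the scaled levels and, where stated, after centring. Sin3B+/+ replicate 1 lay above replicate 2 in 4675 of the 5332 peaks. No row was named for Sin3b, so the deleted gene could not serve as a check of the labels. Of 9 LT-HSC marker genes 4 had a peak (Fgd5, Meis1, Procr and Slamf1, 5 peaks). Of 19 lineage markers 4 did (Hbb-bt, Itga2b, Klf1 and Pf4, 6 peaks), and of 5 stromal and endothelial markers 0 did. The share over all protein-coding genes was 15.7%. All 11 marker peaks were higher in Sin3B-/-, as were 95.7% of the table, so this direction says nothing particular about the markers. Their part in the results was not tested. Kit and Ly6a, which encode cKit and Sca-1, had no row.

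All 29 member peaks were higher in both Sin3B-/- libraries than in both Sin3B+/+ libraries in scaled level, with a median log2 fold change of 0.81, but after centring 19 lay above 0 and 10 below, against 50.8% of the table above 0. All 29 passed limma at a Benjamini-Hochberg adjusted p under 0.05. This count says nothing particular about the members, since 95.7% of the table was called higher and 4.29% lower, each also without overlap between genotypes. The medians of the pathways were 0.81 for the 13 TGF-beta peaks, 0.80 for the 10 Wnt peaks and 0.82 for the 6 Notch peaks, against 0.76 for the table. These medians were close to each other, but they are not matched for level, with which the change went in this table. The median of the mean log2 level was 6.87 for Wnt peaks and 8.32 for both TGF-beta and Notch peaks. Whether the pathways differ at equal level was not tested. A change of at least 1 was reached by 7 of the 29 peaks (24.1%), against 22.4% of the table: 2 of TGF-beta (Ski and Smad7), 3 of Wnt (Dvl2, Ctnnb1 and Dvl1) and 2 of Notch (Jag2 and Rbpj). After centring, limma called 2 of the 29 peaks, Jag2 and Dvl2, both higher, against 7.01% of the table called higher.

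The standard error from limma was 0.215 for every peak, because the spread was estimated in common over the table, which makes each 95% interval the fold change plus or minus 0.42. An exact permutation test of a single peak over 2 against 2 libraries could not reach a two-sided p below 0.33. Every peak had been selected for a difference between these same libraries, so the adjusted p-values describe the spread between libraries and are no independent evidence.

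**Figure D2:**
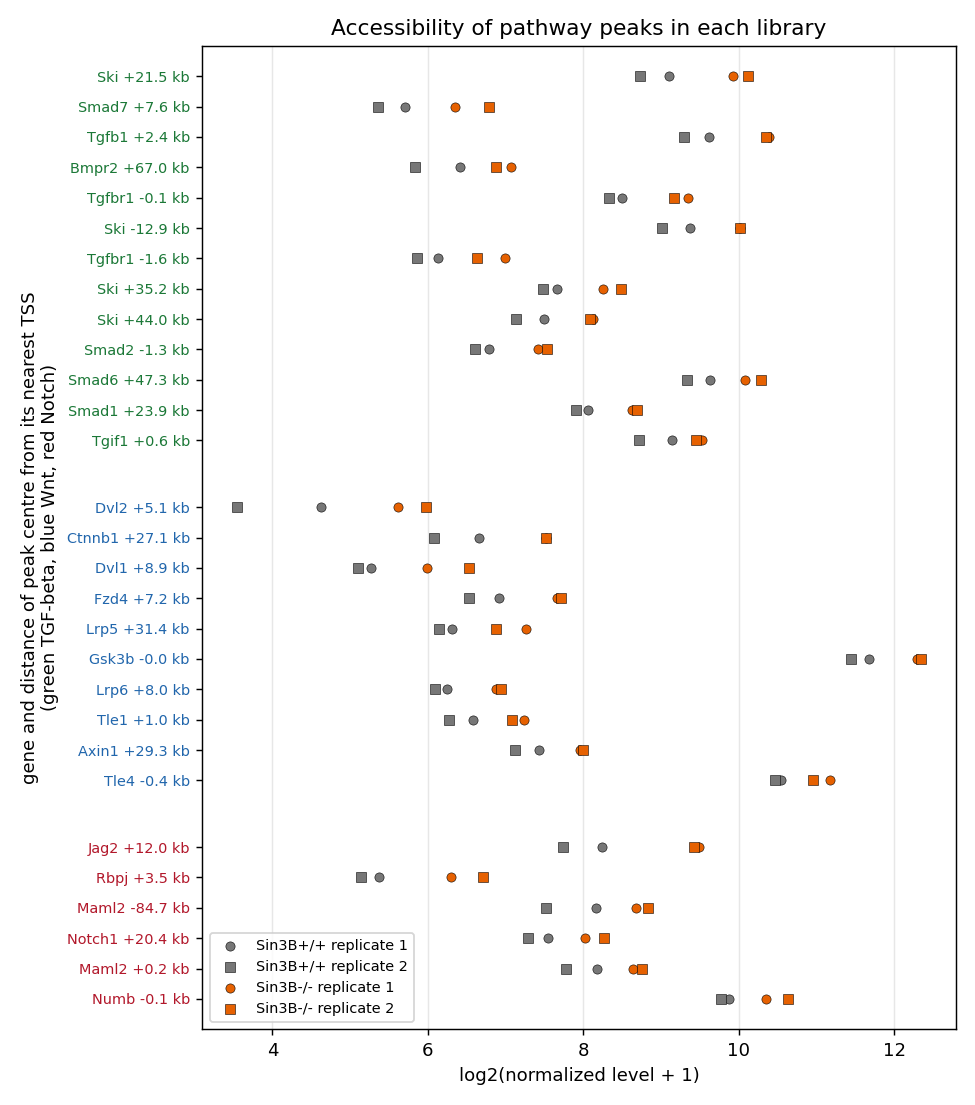
Each row is 1 of the 29 peaks, with its gene and the distance of the peak centre from that gene's nearest TSS, and the points give log2(level + 1) in the 4 libraries (grey, Sin3B+/+; orange, Sin3B-/-; circles, replicate 1; squares, replicate 2). In every row both orange points lie to the right of both grey points, and the grey circle lies to the right of the grey square.

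Within this selected table the change went with the level of the peak. In the quartile of the table with the lowest mean level the median log2 fold change was 1.07, and in the next quartiles it was 0.81, 0.67 and 0.65. A threshold on the FDR admits peaks of low level only with larger changes, so this order is in part set by how the table was selected. A change was therefore also placed among peaks of its own level quartile, as the percentage of those peaks with the same or a smaller value. Peaks lower in Sin3B-/- count among the smaller values, and they were 185 of the 1333 peaks in the lowest quartile. On that scale the Jag2 peak stood at 99.5%, the Ski peak shown above at 98.6%, the Tgfb1 peak at 94.7% and the Dvl2 peak at 94.0%. Rbpj, at 73.0%, Dvl1, at 50.6%, and Smad7, at 45.0%, had changes of at least 1 that were common among peaks of low level. Quartiles match the level only coarsely, since the Dvl2 peak had a mean log2 level of 4.94 against a median of 5.89 in its quartile.

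**Figure D3:**
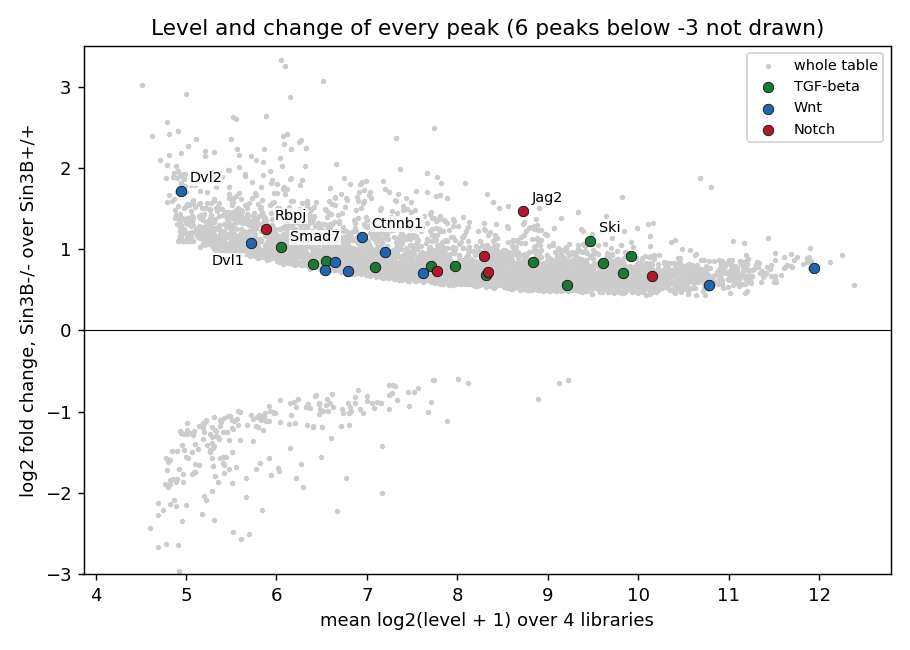
The log2 fold change of each peak (Sin3B-/- over Sin3B+/+) is plotted against its mean log2(level + 1) over the 4 libraries, with the whole table in grey and the member peaks in colour. The Jag2 and Ski peaks stand near the upper edge of the cloud at their level, the Dvl1 and Smad7 peaks stand within it, and the emptiness around 0 comes from the selection of the table.

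Among the TGF-beta genes, all 13 peaks were higher in Sin3B-/- in scaled level, from 0.56 at Tgif1 to 1.10 at Ski. After centring 10 lay above 0 and 3 (Smad6, Smad1 and Tgif1) below, against 50.8% of the table above 0. The ligand gene Tgfb1 (ENSMUSG00000002603) had 1 peak in an intron, chr7:25688811-25690046, 2426 bp downstream of its TSS. Its level was 787 and 626 in Sin3B+/+ replicates 1 and 2 and 1343 and 1308 in Sin3B-/- replicates 1 and 2. It was the TGF-beta peak with the highest level, its genotypes did not overlap, and its log2 fold change was 0.92 (adjusted p = 6.31e-05, limma) or 0.16 after centring.

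Both receptor genes with peaks encode kinases of the receptor complex. TGFBR1 is the type I receptor for TGF-beta, and its gene (ENSMUSG00000007613) had a promoter peak at chr4:47352785-47353385, centred 137 bp upstream of the TSS, with levels of 361 and 321 in Sin3B+/+ and 652 and 574 in Sin3B-/-. The promoter peak changed by 0.84, and a smaller intergenic peak 1596 bp upstream of the TSS changed by 0.81. The ratio of the first to the second was 5.22 and 5.60 in the Sin3B+/+ libraries and 5.16 and 5.86 in the Sin3B-/- libraries, so that it overlapped between genotypes. Bmpr2, for the type II receptor of bone morphogenetic proteins, had 1 intron peak, chr1:59830041-59830671, 66956 bp downstream of its TSS. Sin3B+/+ levels there were 84.0 and 55.9 and Sin3B-/- levels 134 and 116, a log2 fold change of 0.85 that fell to 0.56 when Sin3B+/+ replicate 2 was left out and reached 1.14 when replicate 1 was.

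The SMAD genes with a peak covered both arms of the pathway and its feedback. Smad2, a carrier of the TGF-beta signal, had a peak in an intron that changed by 0.78, and Smad1, a carrier of the bone morphogenetic protein signal, had one with 0.69. Smad7 and Smad6 encode inhibitory SMADs. The Smad7 intron peak, chr18:75377320-75377776, had low levels of 51.3 and 40.1 in Sin3B+/+ and 80.6 and 109 in Sin3B-/-, a log2 fold change of 1.03 (adjusted p = 7.15e-06, limma) or 0.28 after centring. At Smad6 the intron peak, chr9:63974395-63975068, had levels of 789 and 645 in Sin3B+/+ and 1077 and 1250 in Sin3B-/-, and its log2 fold change of 0.70 became -0.052 after centring. Tgif1, for a corepressor that binds SMAD2, had the smallest change of the pathway, with 561 and 420 in Sin3B+/+ against 735 and 700 in Sin3B-/-, a log2 fold change of 0.56 that lay at -0.19 after centring. This call was lost in 3 of the 4 fits that left out 1 library, and the value was lowest, at 0.35, without Sin3B+/+ replicate 2.

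Ski, which encodes a corepressor of SMAD complexes, was the only member with 4 peaks; 45 of the 4376 gene names in the table (1.03%) had that many. Of these peaks 3 lay in introns, 21455, 35160 and 43993 bp downstream of the TSS, and 1 was intergenic, 12949 bp upstream. The first of them, chr4:155200656-155201505, had levels of 546 and 424 in Sin3B+/+ and 971 and 1106 in Sin3B-/-. Its log2 fold change was 1.10 (adjusted p = 1.51e-06, limma) and 0.35 after centring, where it was not called (adjusted p = 0.12). The other 3 peaks of the gene changed by 0.79, 0.79 and 0.83.

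A ratio of peaks within 1 library does not depend on that library's scaling. The level of the Ski peak at 21455 bp divided by that of the intergenic peak was 0.826 and 0.822 in Sin3B+/+ and 0.939 and 1.07 in Sin3B-/-. Divided by the peak at 35160 bp it was 2.71 and 2.38 against 3.19 and 3.11, and divided by the peak at 43993 bp it was 3.05 and 3.05 against 3.48 and 4.10. All 3 ratios were higher in both Sin3B-/- libraries. The peak was singled out for having the largest change of the gene, so the direction of these ratios follows in part from that choice.

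In the Wnt pathway all 10 peaks were higher in Sin3B-/- in scaled level, from 0.56 at Tle4 to 1.71 at Dvl2. After centring 6 lay above 0 and 4 (Lrp6, Tle1, Axin1 and Tle4) below, against 50.8% of the table above 0. Wnt peaks were of low level, with 2 of 10 in the upper range of the table (above its median), against 7 of 13 TGF-beta and 4 of 6 Notch peaks. The receptor gene Fzd4, for a Frizzled protein, had a peak centred on its UTR, chr7:89411232-89411848, with levels of 120 and 91.2 in Sin3B+/+ and 201 and 209 in Sin3B-/- and a log2 fold change of 0.96. The coreceptor genes Lrp5 and Lrp6 each had an intron peak, with log2 fold changes of 0.84 and 0.74.

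DVL1 and DVL2 are Dishevelled proteins, which pass the signal from the receptors to the destruction complex. The Dvl2 peak (ENSMUSG00000020888), 5093 bp downstream of the TSS, had the lowest levels of all members, 23.7 and 10.6 in Sin3B+/+ and 48.1 and 62 in Sin3B-/-. The corresponding means were 17.2 ± 9.26 (SD, n = 2) and 55.1 ± 9.82 (SD, n = 2), and the log2 fold change of 1.71 (adjusted p = 6.22e-14, limma) was the largest of the 29. After centring it was 0.96 with an adjusted p of 0.048 (limma). The Sin3B+/+ libraries differed by more than 2-fold at this peak, and leaving out 1 library moved the value between 1.17 and 2.26. The Dvl1 peak, chr4:155856151-155856508, 8868 bp downstream of its TSS, had levels of 37.4 and 33.3 in Sin3B+/+ and 62.5 and 91 in Sin3B-/-, a log2 fold change of 1.07 that fell to 0.32 after centring.

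Ctnnb1 encodes beta-catenin. Its peak, chr9:120960446-120960971, reached past the end of the gene, and its centre lay in an intron of the neighbouring gene Ulk4. Levels of 99.9 and 66.8 in Sin3B+/+ and 183 and 182 in Sin3B-/- gave a log2 fold change of 1.15 (adjusted p = 5.80e-07, limma) or 0.40 after centring. Gsk3b, for the kinase that marks beta-catenin for destruction, had the highest peak of all members, a promoter peak at chr16:38088344-38089630 centred 14 bp from the TSS. That peak measured 3269 and 2777 in Sin3B+/+ and 5017 and 5211 in Sin3B-/-, and its log2 fold change of 0.76 was close to that of the table and became 0.010 after centring. Axin1, for the scaffold of the destruction complex, had an intron peak with 0.70 or -0.048 after centring.

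TLE1 and TLE4 are Groucho corepressors, which keep TCF/LEF targets silent in the absence of Wnt. The Tle4 promoter peak, chr19:14597932-14598931, had levels of 1487 and 1408 in Sin3B+/+ and 2304 and 1980 in Sin3B-/-, with a log2 fold change of 0.56 that lay at -0.19 after centring and was not called without Sin3B-/- replicate 1, where it was 0.45 (adjusted p = 0.13, limma). At Tle1 an intron peak 974 bp downstream of the nearest TSS of the gene changed by 0.73, or by -0.020 after centring.

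For Notch all 6 peaks were higher in Sin3B-/- in scaled level, from 0.67 at Numb to 1.46 at Jag2. After centring 3 lay above 0 and 3 (Notch1, Numb and the first exon of Maml2) below, against 50.8% of the table above 0. The peak at Jag2 (ENSMUSG00000002799), which encodes a Notch ligand, spanned chr12:112917249-112918285 in an intron, 12009 bp downstream of the TSS. It measured 302 and 212 in Sin3B+/+ and 718 and 684 in Sin3B-/-. Means of 257 ± 63.7 and 701 ± 24.0 (SD, n = 2 each) gave a log2 fold change of 1.46 (adjusted p = 1.76e-10, limma). After centring the change was 0.71 with an adjusted p of 0.013 (limma), and leaving out 1 library moved the value without centring between 1.21 and 1.72. The TSS nearest to this peak was that of the microRNA gene Mir6941, at 2774 bp, so that its assignment to Jag2 rests on its position inside the gene.

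The receptor gene Notch1 had an intron peak, chr2:26483042-26483894, with levels of 185 and 155 in Sin3B+/+ and 258 and 307 in Sin3B-/-. The log2 fold change of 0.73 lay below that of the table, at -0.021 after centring. RBPJ is the DNA-binding factor of the pathway. Its gene (ENSMUSG00000039191) had the intron peak shown above, with levels of 40.4 and 34.3 in Sin3B+/+ and 77.5 and 104 in Sin3B-/-. The peak lay 3495 bp downstream of an internal TSS, the nearest one of the gene. It starts at position 53594334 of chromosome 5, far from the start of the gene at 53466152. The log2 fold change was 1.25 (adjusted p = 5.84e-08, limma), and after centring 0.50 with an adjusted p of 0.063.

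MAML2 is a Mastermind-like coactivator, and its gene had 2 peaks. One was centred on the first coding exon, 243 bp from the TSS, and changed by 0.72. The other, chr9:13536589-13537288, lay in an intron, 84708 bp upstream of an internal TSS of the gene, and had levels of 285 and 182 in Sin3B+/+ and 409 and 454 in Sin3B-/-, a log2 fold change of 0.91 that fell to 0.59 when Sin3B+/+ replicate 2 was left out and reached 1.24 when replicate 1 was. The ratio of the intron peak to the exon peak was 0.989 and 0.835 in Sin3B+/+ and 1.03 and 1.05 in Sin3B-/-, which did not overlap, although the Sin3B+/+ libraries were farther from each other than the nearest libraries of the 2 genotypes. The intron peak was put first for its larger change, so the direction of this ratio follows from that choice. Numb encodes an inhibitor of Notch that is passed on unequally in some dividing cells. Its promoter peak, chr12:83921704-83922337, centred 86 bp upstream of the TSS, measured 937 and 870.3 in Sin3B+/+ and 1299 and 1581 in Sin3B-/-, and its log2 fold change of 0.67 became -0.087 after centring.

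**Figure D4:**
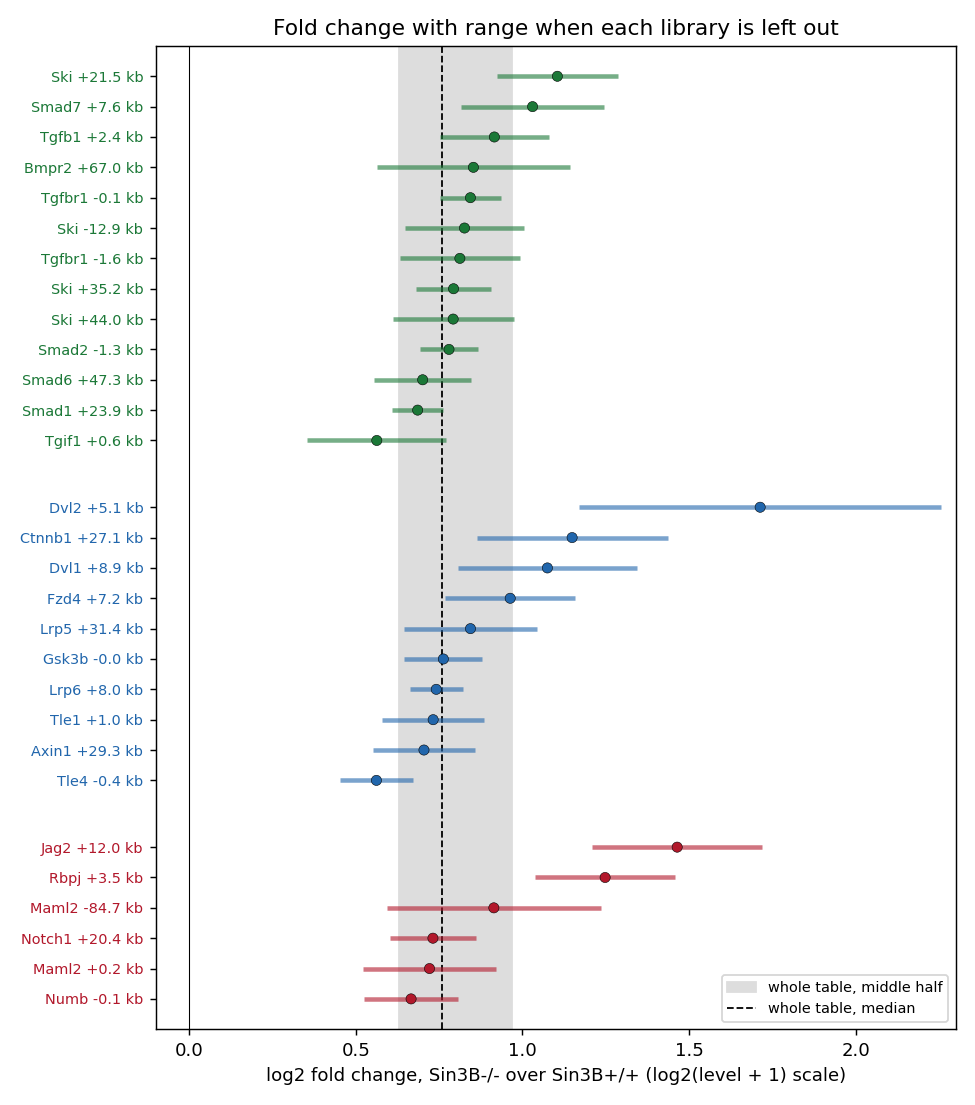
Points give the log2 fold change of each peak, coloured by pathway (green, TGF-beta; blue, Wnt; red, Notch), and bars the range when each library was left out in turn; the dashed line is the table median (0.76) and the band spans its quartiles (0.63 to 0.97). The bars of Jag2, Rbpj and Dvl2 lie wholly to the right of the band, and those of the other 26 peaks touch or overlap it.

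Ordered by role, the median log2 fold change was 1.19 for the 2 peaks of ligands, 0.99 for the 8 peaks of signal carriers, 0.84 for the 7 peaks of receptors and 0.75 for the 12 peaks of inhibitors. The ranges overlapped: 0.69 to 1.71 for signal carriers, 0.73 to 0.96 for receptors and 0.56 to 1.10 for inhibitors. The roles were grouped with the values known, so this order is a description.

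Most member peaks lay inside genes. An intron held the centre of 20 of the 29 (69.0%), against 39.2% of the table, and a promoter (reaching from 1000 bp before a TSS to 100 bp after it) held 4 (13.8%), against 30.8%. The promoter peaks were those of Tgfbr1, Gsk3b, Tle4 and Numb. TGF-beta had 10 of 13 in introns, Wnt 6 of 10 and Notch 4 of 6. In the other pathway genes 17 of 34 peaks (50.0%) were in introns and 7 (20.6%) in promoters. In the table promoter peaks changed less than intron peaks, with medians of 0.67 and 0.84, and the same medians in the members were 0.71 and 0.82. The members' median peak width was 634 bp and median GC content 53.9%, against 685 bp and 53.3% in the table.

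**Figure D5:**
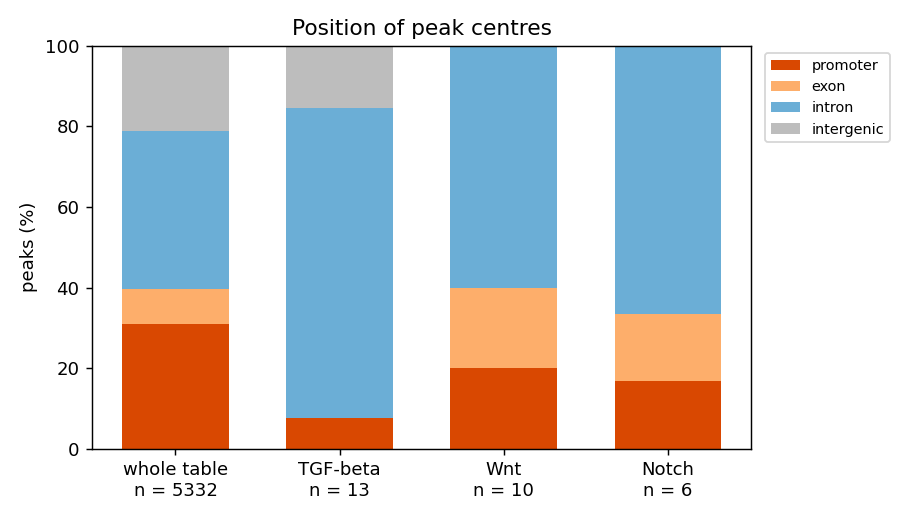
Stacked bars give the percentage of peak centres in promoters, exons, introns and intergenic sequence for the whole table and for the peaks of each pathway, with the number of peaks under each bar. Introns hold the largest share in all 4 bars, from 39.2% in the table to 76.9% for TGF-beta.

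The motifs of the pathways' own factors were counted in 300 bases at each peak centre, on both strands. RBPJ matches were present in 3 of 29 member peaks (10.3%; Rbpj, Dvl1 and Tle1) and in 11.2% of the table. TCF/LEF matches were present in 2 (6.90%; Dvl1 and Tle4) and in 7.65% of the table. SMAD matches were present in 4 (13.8%; Ski, Dvl2, Ctnnb1 and the Maml2 exon peak) and in 9.64% of the table. The shares were near those of the table for RBPJ and TCF/LEF, and the SMAD share rests on 4 peaks, 1 of them of a TGF-beta gene. In the Ski sequence shown above the 3 matches start at positions 155200931, 155200965 and 155201151 of chromosome 4. A match describes letters and does not show that a factor binds there.

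The other pathway genes had 34 peaks, with medians of 0.80 for TGF-beta, 0.82 for Wnt and 0.76 for Notch. Limma called 33 of them higher and 1 lower, near the shares of the table (95.7% and 4.29%), so this count says nothing particular about these genes. After centring 19 lay above 0 and 15 below, against 50.8% of the table above 0. Limma then called 2 higher and 1 lower, against 7.01% and 4.29% of the table. The TGF-beta peaks with the largest changes were in introns of Acvr1b, for an activin type I receptor, at 1.27, with 32.6 and 33.6 in Sin3B+/+ and 78.1 and 85 in Sin3B-/-, and of Ldlrad4, for a protein that inhibits TGF-beta signalling, at 0.84, with 64.1 and 55.2 against 105 and 109. For Wnt they were at Tnks, for a tankyrase that marks axin for degradation, at 1.16, with 135 and 110 against 265 and 281, and at Csnk1a1, for a kinase of the destruction complex, at 1.03, with 29.4 and 26.7 against 57.5 and 59.

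Among the other Notch genes the largest changes were in an intron of Snw1, for a nuclear cofactor of Notch, at 1.38, with 29.9 and 31.5 in Sin3B+/+ and 95.0 and 70 in Sin3B-/-, and at the promoter of Neurl3, a gene of the Neuralized family of ubiquitin ligases, at 1.24, with 346 and 257 against 651 and 771. Neurl3 had 2 further peaks, in introns, with 1.09 and 1.02. The promoter peak stood at 98.1% of its level quartile.

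The single pathway peak that was lower in Sin3B-/- belonged to the ligand gene Wnt7a. It lay in an intron, chr6:91372452-91373383, 38446 bp downstream of the TSS. Levels of 232 and 223 in Sin3B+/+ and 129 and 140 in Sin3B-/- did not overlap, and the log2 fold change was -0.75 (adjusted p = 0.000838, limma) or -1.51 after centring. Centring lowers every log2 fold change by the same 0.75, so it could not turn this direction. The share of the table called lower was 4.29% with and without it.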

How the data were processed

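ATAC-Seq was analysed in 4 libraries, 2 per genotype, grouped by their labels. The authors trimmed the reads, used bowtie2 for alignment, sambamba to take out duplicates and MACS2 to call peaks, and then normalised and tested the peaks in DiffBind with DESeq2. They deposited peaks with an FDR under 0.05, with a signal per library (scaled read levels). Tool versions and the scaling method are not given in the sources used here. The deposited columns of mean level, fold change, p-value and FDR hold the authors' own comparison and were not used. The submitters' processing notes name mm9, whereas 5330 of 5332 gene identifiers were found in GENCODE M21 and 96.6% of those lay at identical gene coordinates, which is why GRCm38 was used.

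Levels were tested as log2(level + 1), with a pseudocount of 1 that can understate changes of low peaks, in limma 3.58.1 (R 4.3.3) over all 5332 peaks with Benjamini-Hochberg adjustment and without a replicate block. The script was tested on simulated data. The design foresaw a count test, which was not run because the values are scaled and were not accepted as whole reads. Total depth is unknown. Peaks were placed on GENCODE M21 basic transcripts and sequences read with pysam 0.24.0 (Python 3.11.15, numpy 2.4.6, pandas 2.3.3, matplotlib 3.10.9). For each pathway, library values were given for the 4 largest changes, the 2 highest levels, the peak nearest its TSS and every lower peak, and for other genes the 2 largest changes and every lower peak; the values of Tgif1 were added after they were seen. Members, lists and roles were chosen with earlier results of these data known. Alternatives were a replicate block, pseudocounts of 0.5 and 4, centred libraries, a threshold of 0.01, removal of the lowest level quartile, assignment by nearest TSS or within 10000 bp, and leaving out each library. Single-cell data of the study were left out.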

Additional observations from a re-analysis of the deposited data

How the results depend on the processing

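Centring the libraries was the setting that moved most results, and the only one with which a named peak turned direction. It takes the typical change of these selected peaks out of every value. Lost calls and values below 0 therefore place a peak against the table. They do not show that its level was equal or lower in Sin3B-/-. The count of member peaks called higher went from 29 to 2, and the medians became 0.060 for TGF-beta, 0.051 for Wnt and 0.070 for Notch. Changes below 0 after centring, among the peaks named for their values, were -0.021 at Notch1, -0.087 at Numb, -0.052 at Smad6 and -0.19 at Tle4, as well as that of Tgif1. Removing the lowest level quartile left 6 of 10 Wnt genes with a peak (Dvl1, Dvl2, Lrp5 and Lrp6 were lost), and assignment by nearest TSS left 3 of 5 Notch genes (Jag2 and Notch1 were lost). Leaving out each library gave 25 to 29 member peaks called. Tgif1 was not called without Sin3B+/+ replicate 2, Tgif1 and Tle4 without Sin3B-/- replicate 1, and Notch1, Numb, Smad6 and Tgif1 without Sin3B-/- replicate 2, where 58.5% of the table was called higher. The table as a whole also lost calls in each fit that lost member calls, so these counts say nothing particular about the members. With each library left out, the medians ranged from 0.68 to 0.95 for TGF-beta, 0.71 to 0.91 for Wnt and 0.61 to 1.08 for Notch. A lone library was assumed to vary like the other genotype. With the replicate block all 29 member peaks were called, and it changed no call of a member. Same-numbered libraries came from different mice, and their deviations correlated at -0.10. The crossed pairing, added after seeing the data, also called 29. Without a block 95.7% of the table was called higher, so the counts with either pairing say nothing particular about the members. Of 192 settings over 24 named peaks, 169 kept direction and call, 19 kept the direction only and 4 turned. The planned edgeR and DESeq2 tests on recovered reads were not run, because a check of the low values did not accept them as whole reads. The cause of these changes was not tested. Low levels limit the Dvl2 peak, with 31 steps in Sin3B+/+ replicate 2.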
